A study of Homo sapiens with 3 samples.

Results

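SAGA (Spt-Ada-Gcn5 acetyltransferase) is a large coactivator that carries TRRAP, and 10 genes that encode its subunits were examined for peaks of CHD8 and TRRAP. The genes were KAT2A, KAT2B, TADA2B, TADA3, SGF29, SUPT3H, SUPT7L, TADA1, USP22 and ATXN7, listed by name among 20033 protein-coding genes of GENCODE release 44. For each gene, every deposited peak was taken from 5 kb upstream of the gene to its end. Chromatin immunoprecipitation followed by sequencing (ChIP-seq) had been done on wild-type human neural stem cells, made from the embryonic stem cell line H9 (an established line) and grown with EGF and FGF. Chromatin was crosslinked with 2 mM disuccinimidyl glutarate and 1% formaldehyde and was precipitated with antibodies against CHD8 or TRRAP, or with control IgG, which was not analysed here. Each antibody had 1 library from this 1 line, so that no test was possible and values describe these libraries. The data compare where the chromatin remodeler CHD8 and the scaffold TRRAP sit in the genome, a question named in the title of the study.

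SAGA has several modules. The acetyltransferase module adds acetyl groups to histone H3 through KAT2A (GCN5) or its close relative KAT2B (PCAF), held by the adaptors TADA2B, TADA3 and SGF29. A core of histone-fold and scaffold proteins, among them SUPT3H, SUPT7L and TADA1, carries the other modules, TRRAP contacts transcription activators such as MYC, and the deubiquitinase module, with the enzyme USP22 and the anchor ATXN7, removes ubiquitin from histone H2B. The acetyltransferases, TADA3 and SGF29 also serve a second complex, ATAC, which has no TRRAP.

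CHD8 was at the promoter of all 10 genes, and TRRAP was at 4 of them: SGF29, SUPT3H, TADA1 and USP22. A promoter was 1 kb on each side of the canonical start site, and any shared base counted. Among all protein-coding genes, 55.9% had a CHD8 promoter peak, 34.9% had a TRRAP promoter peak and 34% had both. The TRRAP count of the SAGA genes, 4 of 10, thus lay near the share of all genes, whereas the CHD8 count lay above it. With only the peaks above the median rank of each list, TRRAP was at the same 4 genes beside 19.5% of all coding genes. How near the TRRAP count lay to the share of all genes thus differed with the peaks used. With 10 genes, no departure from either share was tested. Among the genes with CHD8, 60.7% also had TRRAP (6802 of 11208). In all, the stretches of the 10 genes held 15 CHD8 and 7 TRRAP peaks. All 7 TRRAP peaks overlapped a CHD8 peak, beside 86.8% of the whole TRRAP list. Of the 15 CHD8 peaks, 6 overlapped a TRRAP peak, beside 48.6% of the whole CHD8 list.

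The following 6 stretches of GRCh38 from member peaks show the sequence under the findings. They were cut to lie outside every annotated exon and are written in the direction of the gene. Capitals in the first pair mark exact matches to short words for NRF1, YY1, SP and NFY, transcription factors that bind many promoters. Capitals in the others mark 11 bases around each summit, the highest point of a peak, cut off at an exon.
SUPT3H promoter, chr6:45377954-45378083, minus strand: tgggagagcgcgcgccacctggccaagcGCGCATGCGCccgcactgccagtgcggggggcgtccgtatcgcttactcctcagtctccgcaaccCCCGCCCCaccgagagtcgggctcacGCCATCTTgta
TADA2B promoter, chr4:7043002-7043131, plus strand: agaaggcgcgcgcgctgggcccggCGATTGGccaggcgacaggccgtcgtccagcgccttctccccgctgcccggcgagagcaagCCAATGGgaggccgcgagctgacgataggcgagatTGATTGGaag
TADA1 promoter, chr1:166876265-166876364, minus strand: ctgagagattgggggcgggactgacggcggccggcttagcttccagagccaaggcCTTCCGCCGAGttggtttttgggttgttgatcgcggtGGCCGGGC
KAT2B promoter, chr3:20039997-20040117, plus strand: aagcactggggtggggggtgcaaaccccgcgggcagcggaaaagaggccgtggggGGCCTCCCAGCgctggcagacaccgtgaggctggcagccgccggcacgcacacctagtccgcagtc
ATXN7 internal start, chr3:63912467-63912587, plus strand: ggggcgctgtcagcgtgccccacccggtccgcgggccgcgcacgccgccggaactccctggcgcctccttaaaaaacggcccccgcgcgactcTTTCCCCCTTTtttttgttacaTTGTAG
ATXN7 far intron, chr3:63970729-63970849, plus strand: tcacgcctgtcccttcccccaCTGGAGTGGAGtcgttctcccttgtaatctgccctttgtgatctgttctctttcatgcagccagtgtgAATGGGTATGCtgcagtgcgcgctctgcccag
SUPT3H and TADA1 carried both proteins at these places and KAT2B and TADA2B carried CHD8 alone. The ATXN7 stretches lay inside the gene, where both proteins had peaks although its canonical promoter had CHD8 alone. The TADA1 stretch holds the CHD8 and TRRAP summits, and the ATXN7 stretches hold both summits as well. GC content was 70.0% in the SUPT3H stretch, 69.2% in TADA2B, 65.0% in TADA1, 71.9% in KAT2B, 66.1% at the internal start of ATXN7 and 56.2% in its far intron. The far intron stretch had 4 CpG in 121 bases, fewer than the 15 in 121 bases at the internal start.

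**Figure D1:**
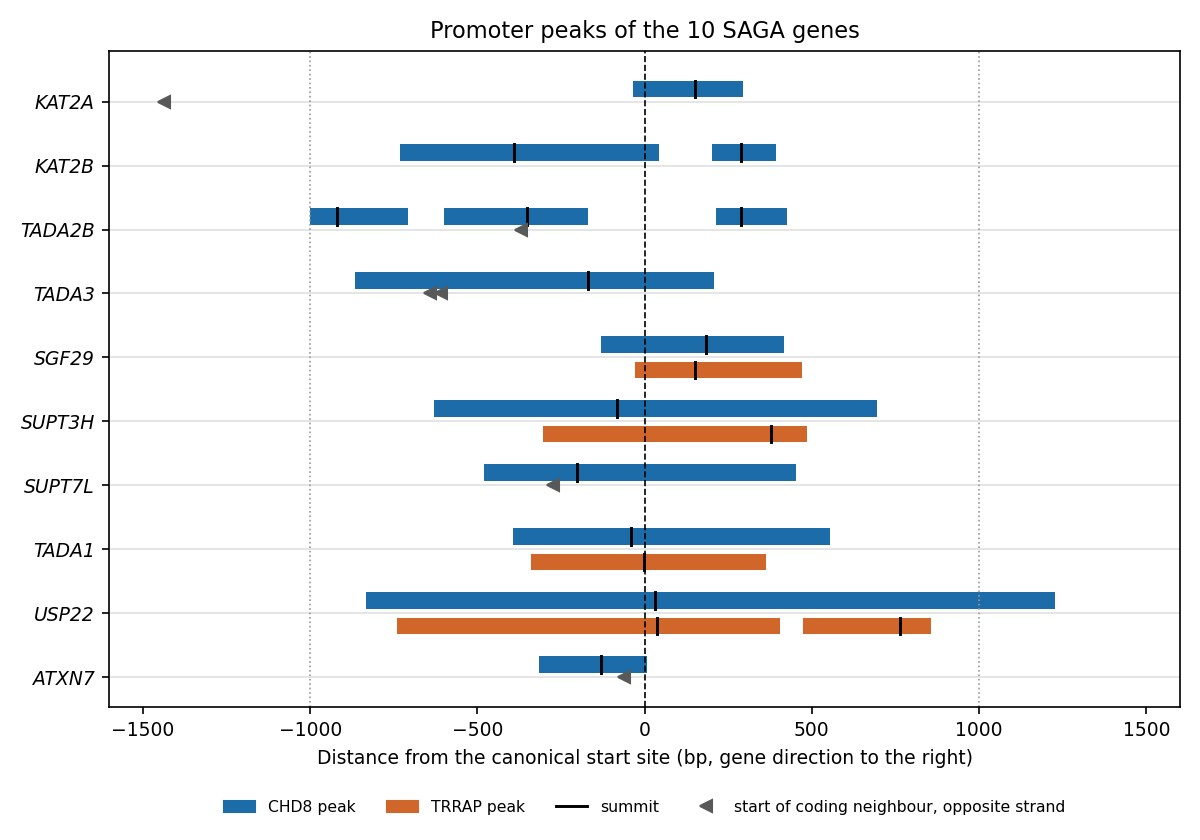
Promoter peaks of the 10 SAGA genes, by distance in bp from the canonical start site, with transcription running to the right. Blue bars are CHD8 peaks, orange bars are TRRAP peaks, black ticks are summits, dotted lines are the 1 kb edges and grey triangles are starts of coding neighbours on the opposite strand; every gene has a blue bar and 4 have an orange one.

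Folds below are the deposited ratio of signal to background at the summit, and ranks run from the strongest peak by significance in each list. Folds were used within a list and were not compared between the lists, which come from different antibodies. A fold could take only certain values: the CHD8 folds lay on a ladder with steps of 0.442 and the TRRAP folds on one with steps of 0.478, on which 15 of 15 and 7 of 7 member peaks fell within 0.05 steps. All other peaks of both lists did so too, as if each list had 1 background value for the whole genome; the fold may then be the height of the signal rescaled, and whether a control entered it is not given in the sources used here. Differences of 1 or 2 steps are therefore the smallest that the lists can hold. A peak cannot tell binding in few cells from weak binding in many.

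In the acetyltransferase module, 5 of 5 genes had CHD8 and 1 of 5, SGF29, had TRRAP. KAT2A (ENSG00000108773.11, chromosome 17, 42113111 to 42121367, minus strand), the GCN5 enzyme, had 1 CHD8 peak at 42121075 to 42121401 with a fold of 9.31 (−log10 q 13.6, rank 11876 of 23393). Its summit lay 151 bp downstream of the start, in the coding sequence of exon 1. The nearest TRRAP peak was 59849 bp from the start site, outside the gene. KAT2A thus had a narrow CHD8 peak of 327 bp, and 37.8% of all CHD8 promoter peaks ranked lower.

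KAT2B (ENSG00000114166.8, chromosome 3, 20040446 to 20154404, plus strand), the alternative enzyme, had 2 CHD8 promoter peaks, as 23.2% of coding genes with CHD8 had more than 1. The stronger, at 20039714 to 20040487, was 774 bp wide with a fold of 11.1 and a summit 389 bp upstream of the start. The weaker, at 20040647 to 20040837, was 191 bp wide with a fold of 6.66 and a summit in the coding sequence of exon 1, 289 bp downstream. The stronger one holds the KAT2B sequence printed above. The nearest TRRAP peak was 93245 bp from the start, on the upstream side, and no TRRAP peak lay in the gene. Neither acetyltransferase gene thus had TRRAP at its promoter or in its body.

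TADA2B (ENSG00000173011.12, chromosome 4, 7041899 to 7057952, plus strand), the adaptor that distinguishes SAGA from ATAC, had 3 separate CHD8 promoter peaks, the most of any member. They lay at 7042372 to 7042665, 7042772 to 7043201 and 7043584 to 7043796, with folds of 7.10, 7.54 and 7.54 and a −log10 q of 9.04 each. These 3 peaks differed by at most 1 step of fold. The first began at the outermost base of the promoter window, and none covered the canonical start, the nearest edge being 171 bp away. The other 9 of 10 members had a CHD8 peak over the start itself, beside 87.9% of coding genes with a CHD8 promoter peak. The middle peak holds the TADA2B sequence above, in which 3 NFY words were found; 2 of them lie within 100 bp of the summit.

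TADA3 (ENSG00000171148.14, chromosome 3, 9779967 to 9793011, minus strand), a further adaptor, had a broad CHD8 peak of 1075 bp at 9792266 to 9793340 with a fold of 15.9 (rank 3216). Its summit was 168 bp upstream of the canonical start, and 80.3% of CHD8 promoter peaks ranked lower. The nearest TRRAP peak, 22497 bp away, lay beyond the end of the gene.

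SGF29 (ENSG00000176476.9, chromosome 16, 28553915 to 28591790, plus strand), a reader of methylated histone H3, was the member of this module with both proteins. CHD8 had a peak at 28553791 to 28554335, fold 11.1, with its summit 183 bp downstream of the start. TRRAP had one at 28553892 to 28554390, fold 16.3 (−log10 q 31.8, rank 1300 of 14735), with its summit 151 bp downstream, in the untranslated part of exon 1. The summits were 32 bp apart and the peaks shared 444 bp. SGF29 and KAT2B tied in CHD8 fold, at 11.1, yet 1 had TRRAP and the other did not. Within its own list, the TRRAP peak of SGF29 outranked 92.3% of promoter peaks, whereas the CHD8 peak outranked 53.9%.

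In the core, 3 of 3 genes had CHD8 and 2 of 3 had TRRAP. SUPT3H (ENSG00000196284.18, chromosome 6, 44809317 to 45377953, minus strand), which has histone folds, had a CHD8 peak of 1326 bp at 45377239 to 45378564 with a fold of 13.3. The TRRAP peak at 45377450 to 45378238 lay wholly within it, 789 bp wide with a fold of 13.9. The summits were 459 bp apart: that of CHD8 was 82 bp upstream of the canonical start, and that of TRRAP was in an intron 377 bp downstream, 134 bp from the start of another transcript of the gene. SUPT3H is the longest member, at 568.6 kb, and it had no peak in its body. The SUPT3H sequence above lies around the CHD8 summit, with the YY1 word 26 bp, the SP word 52 bp and the NRF1 word 115 bp from the start site; the NRF1 word was read there on both strands, in matches that overlap.

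SUPT7L (ENSG00000119760.16, chromosome 2, 27650809 to 27663840, minus strand), a core scaffold protein, had the strongest CHD8 peak of the 10 genes. It lay at 27663163 to 27664094 with a fold of 38.9 (−log10 q 114.6, rank 278), above 98.5% of CHD8 promoter peaks. The summit was 202 bp upstream of the canonical start and 24 bp from the start of another coding transcript. No TRRAP peak was found within 34562 bp. The member with the highest CHD8 fold was therefore among those without TRRAP.

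TADA1 (ENSG00000152382.6, chromosome 1, 166856510 to 166876264, minus strand), a histone-fold partner in the core, had both. CHD8 covered 166875712 to 166876656, with a fold of 18.1 (rank 2305), and TRRAP covered 166875902 to 166876603, with a fold of 9.12 (rank 5558). The summits lay 40 and 3 bp upstream of the start, 37 bp from each other, and are the capitals in the TADA1 sequence. TADA1 reversed the order seen at SGF29: its CHD8 peak outranked 85.7% of promoter peaks of its list and its TRRAP peak 63.2%.

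In the deubiquitinase module, both genes had CHD8 and USP22 had TRRAP at its promoter. USP22 (ENSG00000124422.12, chromosome 17, 20999596 to 21043760, minus strand), the enzyme, had the widest CHD8 peak of the members, 2060 bp at 21041786 to 21043845, with a fold of 25.2 (rank 1008). It was wider than 99.7% of CHD8 promoter peaks. USP22 also had the strongest TRRAP peak of the members, 1144 bp at 21042608 to 21043751, with a fold of 28.2 (−log10 q 67.9, rank 287), above 98.7% of TRRAP promoter peaks. The summits of this pair lay 31 and 38 bp downstream of the start, in the untranslated part of exon 1, 7 bp apart. A further TRRAP peak (21042156 to 21042537) was weaker, with a fold of 8.17 and a summit 764 bp downstream, 26 bp from the start of another coding transcript. USP22 thus had high values in both lists, unlike SUPT7L.

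**Figure D2:**
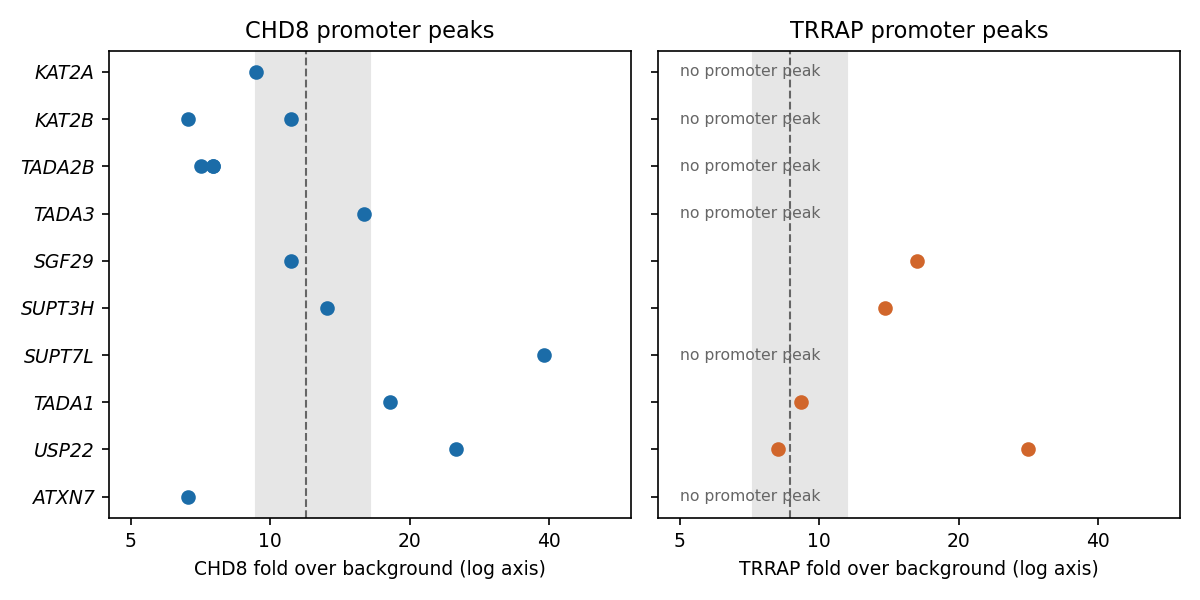
Folds over background (log axis) of the promoter peaks of each SAGA gene in the CHD8 list (left) and the TRRAP list (right), each point 1 peak. The dashed line and the grey band are the median and the 25th to 75th percentile of the strongest promoter peak of each coding gene; SUPT7L leads on the left at 38.9 and USP22 on the right at 28.2.

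Taking the strongest peak per gene, CHD8 folds of the 10 members had a median of 12.2 (6.66 to 38.9), beside a median of 12.0 (25th to 75th percentile 9.31 to 16.4) for the 11208 coding genes with CHD8. The CHD8 folds of the SAGA genes were thus spread across the usual range. The TRRAP folds of the 4 members with TRRAP had a median of 15.1 (9.12 to 28.2), beside 8.65 (7.21 to 11.5) for 7000 coding genes. These 4 TRRAP peaks were wide, at 499 to 1144 bp, beside a median of 269 bp for all coding genes with TRRAP. The widths of the strongest CHD8 peaks ran from 323 to 2060 bp with a median of 853 bp, beside 638 bp.

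The rank of the CHD8 peak did not fully separate the members with TRRAP from those without. Across all coding genes with CHD8, the share with TRRAP went from 76.0% (95% Wilson interval 74.2 to 77.7) in the quintile with the strongest CHD8 peaks to 37.2% (35.2 to 39.2) in the weakest. In the strongest quintile, USP22 and TADA1 had TRRAP and SUPT7L did not. TADA3, in the next quintile, where 70.8% of genes had TRRAP, had none. In the middle quintile, SUPT3H and SGF29 had it and KAT2B did not. KAT2A, TADA2B and ATXN7, in the weaker quintiles, had none. With this placing, members without TRRAP were found in every quintile, and members with TRRAP only in the strongest and middle quintiles. The placing of TADA1, SGF29 and KAT2B rests on ties. TADA1 had a fold of 18.1, the value at the edge between the strongest quintile and the next. SGF29 and KAT2B had a fold of 11.1, the value at the lower edge of the middle quintile. Tied peaks were ordered by width and position, so each of these genes could equally lie in the adjoining quintile.

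**Figure D3:**
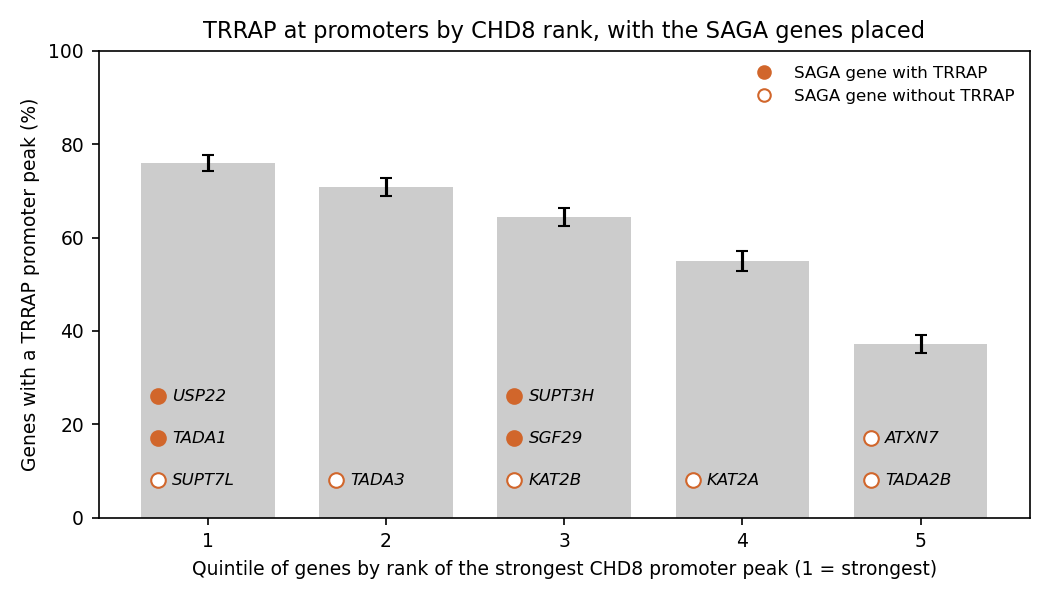
Share of coding genes with a TRRAP promoter peak (%, grey bars, with 95% Wilson intervals) in each quintile of genes ranked by their strongest CHD8 promoter peak. Circles place the SAGA genes in their quintile, filled with TRRAP and open without. The share goes from 76.0% to 37.2%, and open circles occur in every quintile. TADA1, SGF29 and KAT2B have folds equal to a quintile edge and were placed by width and position.

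ATXN7 (ENSG00000163635.20, chromosome 3, 63863155 to 64003462, plus strand), the deubiquitinase anchor, whose expanded CAG repeat causes spinocerebellar ataxia type 7, was the member with body peaks. At its canonical start it had a weak CHD8 peak, 63863551 to 63863873, with a fold of 6.66 (−log10 q 8.02, rank 19822) and a summit 129 bp upstream. No TRRAP peak was found within 48299 bp of that start. Inside the gene, 48720 bp downstream, lay a stronger CHD8 peak at 63911835 to 63912710, 876 bp wide with a fold of 12.0 (−log10 q 21.2, rank 6672). A TRRAP peak at 63912166 to 63912723 overlapped it by 545 bp, with a fold of 14.9 (−log10 q 27.3, rank 1650). The summits were 22 bp apart, and those of CHD8 and TRRAP lay 1 and 23 bp from the start of a shorter coding transcript (ENST00000522345.2). They also lay 658 and 636 bp downstream of the start of another coding transcript (ENST00000487717.5). Whether either annotated start is used in these cells was not tested. The same peaks lay near the start of SCAANT1, a noncoding RNA antisense to ATXN7, with summits at −815 and −793 bp from it. At ATXN7 the largest CHD8 and TRRAP folds were thus near the annotated internal coding starts.

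Further in, a weaker pair lay in an intron, with CHD8 at 63970696 to 63970868 (173 bp, fold 8.43) and TRRAP at 63970749 to 63970922 (174 bp, fold 7.69). The summits were 68 bp apart and 2386 and 2454 bp from the nearest annotated start of an ATXN7 transcript. This pair is the far intron sequence above, and it was the only shared place of the members away from any annotated start of its gene. Body peaks were found in 1 of 10 members, beside 24.3% of all coding genes for CHD8 and 15.2% for TRRAP. A body peak was any peak of the gene stretch that did not touch the promoter window. The shares of coding genes with body peaks therefore also count peaks up to 5 kb upstream of a gene, not only peaks inside it. Among coding genes of at least 100 kb, 43.8% had a CHD8 body peak and 29.2% a TRRAP body peak. Of the 3 members of that length, ATXN7 had both and KAT2B and SUPT3H had neither.

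**Figure D4:**
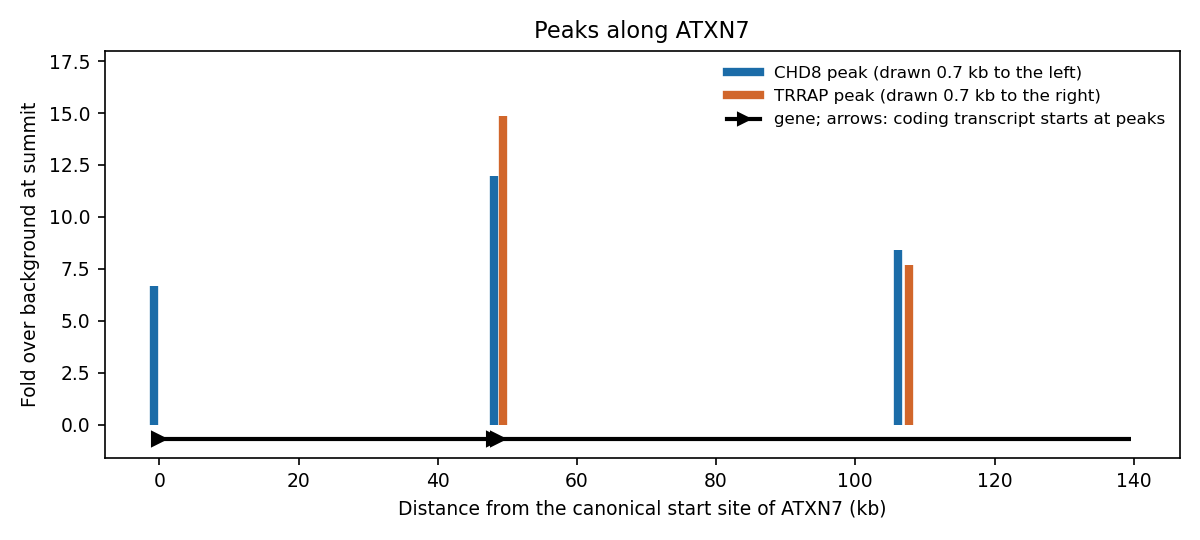
Folds over background at the summit of each peak along ATXN7, by distance in kb from the canonical start (CHD8 drawn 0.7 kb to the left and TRRAP 0.7 kb to the right of its place). The black line is the gene and arrows are starts of coding transcripts at peaks; the CHD8 fold is 12.0 at the internal start and 6.66 at the canonical start, and the TRRAP fold at the internal start is 14.9.

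Several promoters were shared with a neighbour, so that a peak there cannot be assigned to 1 gene. SUPT7L starts 275 bp from SLC4A1AP, TADA2B 371 bp from CCDC96, TADA3 609 bp from ARPC4 and ATXN7 62 bp from THOC7, each on the opposite strand. Such a head-to-head start, within 1 kb, occurred in 15.9% of coding genes with CHD8. A CHD8 promoter peak was at 94.2% of all head-to-head coding genes and at 51.9% of the others. These 4 head-to-head members all had CHD8 without TRRAP, and their neighbours had no TRRAP promoter peak either. The neighbours are no separate evidence, because no TRRAP peak lay closer than 22497 bp to any of the 4 member starts. Of the 6 other members, 4 had TRRAP, and KAT2A and KAT2B did not. SGF29 starts 278 bp from a noncoding RNA gene (ENSG00000275441) on the opposite strand. Across all coding genes the split did not recur: with CHD8 present, TRRAP was at 63.6% of head-to-head genes (61.3 to 65.8) and at 60.1% of the others (59.1 to 61.1). In the other SAGA genes described next, 4 of 4 head-to-head genes had TRRAP.

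The CpG ratio (observed over expected CpG within 500 bp of the start) was above the median of all coding genes, 0.725, in 8 of 10 members. It was highest at SGF29 (1.05) and TADA2B (1.02), of which 1 had TRRAP. The lowest ratios were those of KAT2A (0.549) and TADA3 (0.645), neither of which had TRRAP. At the 4 members with TRRAP the ratio was 0.835 for SUPT3H, 0.839 for USP22, 0.899 for TADA1 and 1.05 for SGF29. Of the members without TRRAP, KAT2B (0.837), ATXN7 (0.890) and TADA2B lay within this range. SUPT7L (0.766), TADA3 and KAT2A lay below it.

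Short words of 8 factors were searched on both strands without mismatch within 100 bp of each member summit. The MYC and MAX E-box (CACGTG) was found at 0 of 15 CHD8 and 0 of 7 TRRAP summits, beside 5.37% and 7.03% of all summits on the main chromosomes. The E2F words (TTTCCCGC, TTTGGCGC, TTTCGCGC and TTTGCCGC) were also at 0 of 15 and 0 of 7, beside 2.57% and 3.14%. With so few peaks, nothing is read from these absences. The NRF1 word (GCATGCGC) was at the CHD8 summit of SUPT3H, beside 1.70% of all CHD8 summits. The YY1 word (AAGATGGC) was at SUPT3H and at the last of the TADA2B peaks, beside 4.05%. The NFY word (CCAAT followed by CA, GA, CG or GG) was at the middle TADA2B peak, beside 8.02%. The SP word (GGGGCGGG) was at the CHD8 summits of SUPT3H, TADA1 and TADA3 and at the TRRAP summit of TADA1, 3 of 15 and 1 of 7, beside 17.9% and 21.7% of all summits. The ETS (CCGGAAGT) and ZNF143 (ACTACAATT) words were at none of the 22 member summits, beside 3.63% and 0.134% of all CHD8 summits. No word contains another, and matches to different words did not overlap. Of the member peaks, 13 of 15 for CHD8 and 5 of 7 for TRRAP were promoter peaks. In the whole lists, 12578 of 23393 CHD8 and 7877 of 14735 TRRAP peaks lay at coding promoters. The shares over all summits are therefore not those of promoter summits.

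The other genes of the complexes put these counts in context, with lists written from general knowledge. Of 17 further genes, called other SAGA genes here, 16 had a CHD8 promoter peak and 12 had both, TRRAP itself included. The share of all coding genes with both was 34%. This list is wider than the subunits of SAGA. ATXN7L3B, USP27X and USP51 were included as relatives or alternatives of subunits, and none of them had a TRRAP promoter peak. Above the median rank, 6 of the 17 and 4 of the 10 SAGA genes had both, beside 16.7% of all coding genes. The 10 genes were not the lower list there, and with lists this short neither order was tested. The genes with CHD8 alone were TAF9B (fold 12.0), a paralog of TAF9, ATXN7L3B (14.2), a relative of the adaptor ATXN7L3, SF3B5 (14.6), a splicing factor subunit, and USP27X (7.54), an alternative deubiquitinase. USP51, another alternative to USP22, had no promoter peak of either protein. The highest CHD8 fold was at SF3B3 (23.9), and the highest TRRAP folds were at TAF5L and TAF6L (12.9 each), below that of USP22.

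Of 9 genes that serve ATAC and not SAGA, 9 had CHD8 and 8 had TRRAP. MBIP, with a CHD8 fold of 12.4, was the gene without TRRAP. POLE3 led in CHD8 fold (27.9) and CHRAC1 in TRRAP fold (26.8). Paralogs of members differed in the same libraries. TADA2A, the ATAC counterpart of TADA2B, had both proteins with a TRRAP fold of 11.5. ATXN7L1 and ATXN7L2 had TRRAP folds of 7.21 and 10.6 at their promoters, where the canonical promoter of ATXN7 had none. At its internal coding start, however, ATXN7 had a TRRAP fold of 14.9. The adaptor ATXN7L3 had a TRRAP fold of 9.12 at its promoter. With the 4 members that also serve ATAC, 3 of which lacked TRRAP, 9 of 13 ATAC genes had a TRRAP promoter peak. In the wider SAGA list, members included, 16 of 27 genes had one. The share of all coding genes was 34.9%. The difference between the lists was not tested.

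**Figure D5:**
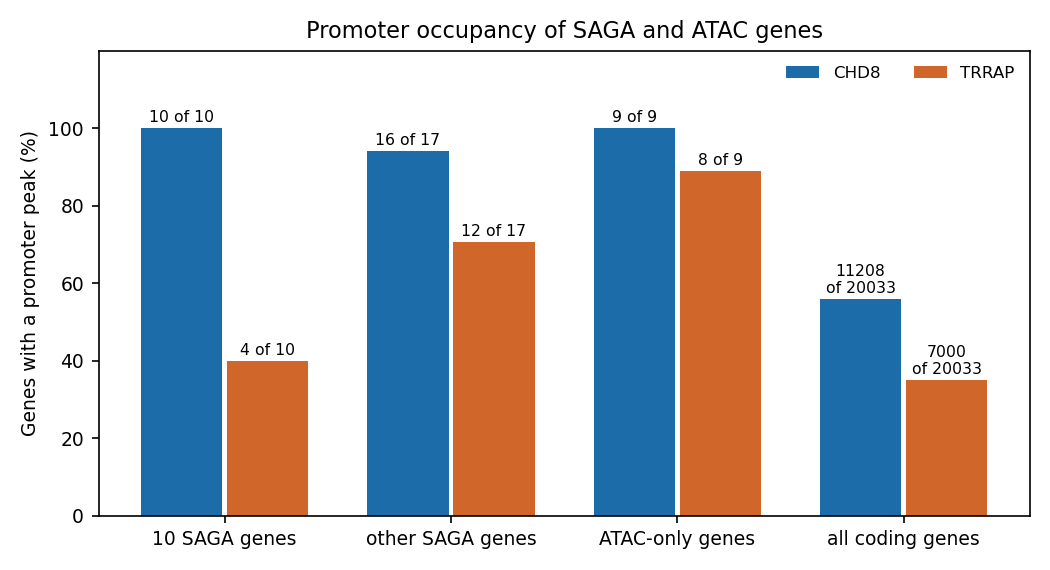
Share of genes (%) with a CHD8 (blue) or TRRAP (orange) promoter peak among the 10 SAGA genes, 17 other SAGA genes, 9 ATAC-only genes and all 20033 coding genes; numbers over the bars are counts. The CHD8 bars of the 3 lists exceed that of all genes, and the TRRAP bar of the 10 SAGA genes, 4 of 10, is the lowest of the 3 lists when all peaks are used.

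The lists held 23393 CHD8 and 14735 TRRAP peaks, with median folds of 9.31 and 8.17, and the reads behind them are unknown. All 22 member summits lay in sequence found once in the genome. Of 8 neural stem cell genes (SOX2, NES, PAX6, VIM, MSI1, SOX1, FABP7 and HES1), 8 had CHD8 and 6 had TRRAP at their promoters. Among all coding genes, 55.9% had a CHD8 and 34.9% a TRRAP promoter peak. Of 4 pluripotency genes, POU5F1 and NANOG had neither and LIN28A and DPPA4 had both, and of 4 neuronal genes, RBFOX3 and DCX had neither and MAP2 and SNAP25 had both. Occupancy is no measure of expression, so the cell type label could not be checked against markers.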

How the data were processed

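Peaks of 2 ChIP-seq libraries (CHD8 and TRRAP, 1 each, no replicates) were used. Per the submitters' processing notes, HISAT2, MACS2 2.1.1.20160309 and GRCh38 were used; settings and controls are not given in the sources used here. The names of the deposited lists state a false discovery rate of 0.0001 for CHD8 and of 0.001 for TRRAP. They give the authors' fold (a linear ratio), −log10 p, −log10 q, a summit and a score for each peak; the score was not used. No peak on chromosomes 1 to 22, X or Y ran past a chromosome end of GRCh38. Coordinates count from 1.

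Genes came from GENCODE 44. Promoter, gene stretch and overlap (at least 1 bp) were computed in Python 3.11.15 with pandas 2.3.3 and pysam 0.24.0, after a check on simulated peaks. Ties in −log10 q were ranked by fold, width and position. Summit copies were counted with 32-base words in 101 bp. Wilson intervals cover counting error only. All members, and every peak in their stretch, are named. Of the context lists, genes without a peak and those with the highest fold are named. The ATXN7 and TADA2 paralogs, ATXN7L3 and the sequence words were picked after values were seen. Members and lists were chosen with earlier results of these data known.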

Additional observations from a re-analysis of the deposited data

How the results depend on the processing

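Counts of SAGA genes with CHD8, TRRAP or both promoter peaks moved by at most 3 genes under windows of 500 and 2500 bp, starts of all transcripts, summits in the window and peaks above the median rank. With all transcripts, ATXN7 was added and 5 members had TRRAP, beside 38.3% of all coding genes. Above the median rank, 7 had CHD8 and 4 had TRRAP, beside 42.5% and 19.5% of all coding genes, lower than the 55.9% and 34.9% with all peaks. The last restriction also left 8 CHD8 peaks across the member genes in place of 15. It left 6 other SAGA genes with both in place of 12 and 6 ATAC-only genes in place of 8, while members with both stayed at 4. The overlap of the member peaks stayed within its Wilson interval under each rule tried. These intervals were wide, 19.8 to 64.3% for CHD8 peaks and 64.6 to 100% for TRRAP peaks, so little could fall outside them. Above the median rank, 5 of 8 CHD8 peaks (62.5%) overlapped a TRRAP peak, in place of 6 of 15 (40%). With peak centres within 200 bp, a rule on distance and not overlap, 5 of 7 TRRAP peaks had a CHD8 partner. No paired analysis was possible because each antibody had 1 library. With 1 library each, neither variation between experiments nor a missed weak TRRAP peak can be measured.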
